A study of Mus musculus with 6 samples.

Results

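The vascular endothelial growth factor (VEGF) ligands, their receptor tyrosine kinases and the neuropilin co-receptors were followed in RNA from lung pericytes of newborn mice. The family was taken by gene name, with earlier results of these data known. It comprised 10 of the 21603 genes listed in each sample: the ligands Vegfa, Vegfb, Vegfc, Vegfd (also called Figf) and Pgf, the receptors Flt1, Kdr and Flt4, and the neuropilins Nrp1 and Nrp2. Pericytes are mural cells that wrap capillaries. Their RNA was obtained with the RiboTag approach, in which Cre recombination switches on a haemagglutinin (HA) tag on the ribosomal protein RPL22, so that an HA antibody pulls down ribosomes with the RNA on them. Pulldowns from 3 control and 3 Yap1,Wwtr1 iPCKO lungs were sequenced at postnatal day 8 (P8). Mutants were Yap1 lox/lox and Wwtr1 lox/lox, labelled Yap1-/-;Wwtr1-/-, so that recombined cells lose both transcriptional co-activators of the Hippo pathway, YAP and TAZ. Controls were Yap1 lox/+ and Wwtr1 lox/+, labelled Yap1+/-;Wwtr1+/-, and were thus not wild type. All 6 animals were C57BL/6, carried the Pdgfrb(BAC)-CreERT2 transgene and 1 floxed Rpl22 allele, and had received tamoxifen in the first days after birth. The transgene is driven by Pdgfrb regulatory sequences, so any PDGFRβ-expressing cell could be tagged, not the pericyte alone.

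VEGF-A, the main growth signal of blood vessels, binds the receptors encoded by Flt1 (VEGFR1) and Kdr (VEGFR2). KDR carries most of the signal for endothelial growth and permeability, whereas FLT1 binds VEGF-A tightly but signals weakly and also occurs as a soluble decoy. Placental growth factor (Pgf) and VEGF-B bind FLT1 and not KDR. VEGF-C and VEGF-D bind FLT4 (VEGFR3), the receptor of lymphatic vessels and of sprouting blood vessels. Neuropilins hold VEGF next to these receptors and also serve as receptors of class 3 semaphorins. In the lung, epithelial cells are a main source of VEGF-A and capillary endothelial cells the main bearers of KDR.

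The labels were checked on the deleted genes. Levels are in RPKM, that is, mapped reads scaled to the exon length of a gene and to the depth of the library. Yap1 had 13.2, 11.5 and 12.4 RPKM in the controls and 5.76, 5.83 and 5.25 RPKM in iPCKO (log2 fold change -1.12, SE 0.093, limma adjusted p = 0.00017). Wwtr1 had 71.3, 53.8 and 56.1 RPKM in the controls and 63.5, 60.3 and 62.2 RPKM in iPCKO, and thus did not separate the groups. Which exons the floxed Wwtr1 allele loses is not given in the sources used here, and RPKM over the whole gene need not fall. Depth implied by the steps of low values lay between 14.2 M and 39.6 M reads per library, and the groups overlapped in it. From these depths, about 54.9 reads lay behind the Vegfb value of iPCKO 3 and about 78.0 behind its Vegfc value, while Nrp1 in control 3 rested on about 28158. Pdgfrb itself had between 1193 and 1666 RPKM in every sample, but markers of other cell types were present as well. Of 12 pericyte markers 6 (50%) were called by the thresholds given below, beside 6.79% over all genes tested. Cspg4 (log2 fold change 1.06), Kcnj8 (1.03) and Abcc9 (1.15) were higher and Notch3 (-0.94), Mcam (-1.04) and Rgs5 (-1.15) lower. With 1 lung left out, 4 or 5 pericyte markers were called. Of 9 smooth muscle markers 4 (44.4%) were called, with Actg2 (1.59) and Cnn1 (1.11) higher and Synpo2 (-1.13) and Lmod1 (-0.97) lower. The part of these changes in the VEGF results was not tested. The summed RPKM of 12 alveolar epithelial markers was 535 to 590 in controls and 662 to 724 in iPCKO. Most of it was Sftpc, at 338 to 381 and 433 to 467 RPKM, which was not called. Of these 12, Hopx and Sftpb were called higher, and log2 fold changes ran from -0.22 to 0.65. Without any single control or without iPCKO 2, 0 of them were called. Y-linked transcripts were plentiful in control 1 and control 3 and at or near 0 elsewhere, with Ddx3y at 17.2 and 19.7 RPKM in these and listed at 0 in the other 4 samples.

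In Yap1,Wwtr1 iPCKO pulldowns Flt1, Kdr and Pgf rose and Vegfc fell. Vegfc fell to 49.4% of its control mean, whereas Pgf rose to 176%, Kdr to 170% and Flt1 to 169%. These 4 of 10 members passed both thresholds set for a call, an adjusted p under 0.01 and a log2 fold change beyond 0.5 in either direction (limma on log2(RPKM + 0.1)). Whether an RNA fell because a type of cell was fewer or because each cell held less of it cannot be told apart in such pulldowns. Over all 12034 genes tested, 6.79% passed, 4.11% as higher and 2.68% as lower in iPCKO. Nrp2 was higher and Nrp1 lower in every iPCKO lung than in every control lung without passing these thresholds. For Vegfa, Vegfb, Vegfd and Flt4 the groups overlapped. In all, 6 of 10 members did not overlap between groups, where 35.5% of all genes tested did not. Of these members, 4 were higher in iPCKO (18.3% of all genes) and 2 lower (17.1%). All 10 members reached 1 RPKM in 3 or more samples and were tested.

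**Figure D1:**
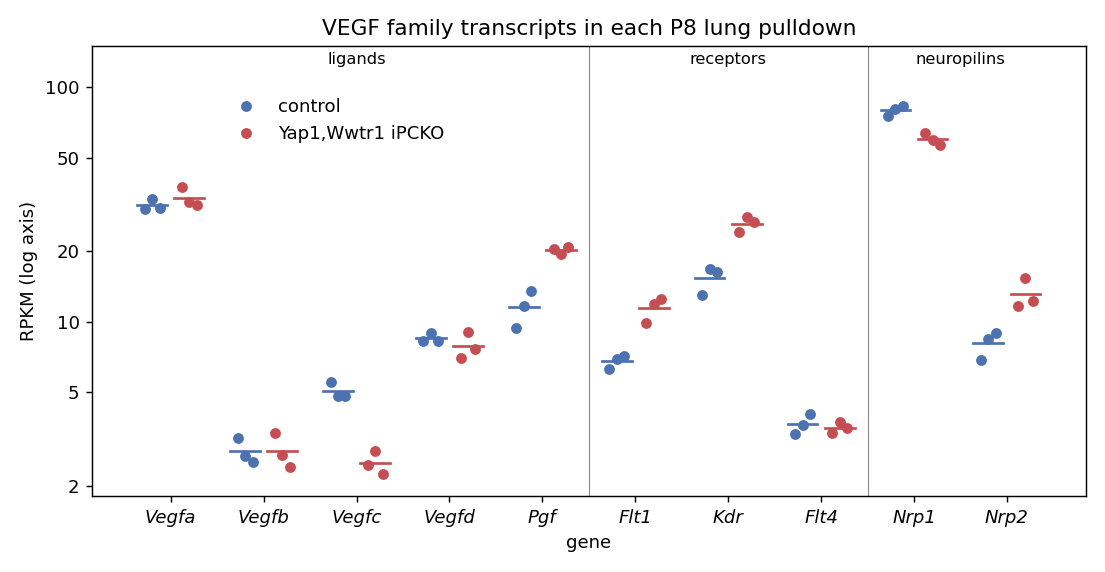
Level of each VEGF family transcript in the 6 pulldowns, in RPKM on a log axis. Each point is 1 lung (3 control, 3 Yap1,Wwtr1 iPCKO) and each bar the group mean. The iPCKO points of Pgf, Flt1, Kdr and Nrp2 lie above all control points, and those of Vegfc and Nrp1 below them.

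The start regions of the 4 members that passed the thresholds are shown here, as RefSeq lists them. They are RefSeq windows of 300 bases on GRCm38.p6 that reach from upstream of the transcription start site into the first exon, read 5′ to 3′ on the gene's own strand. RefSeq listed 2 such starts for Pgf, of which the upstream one is printed. The gene model behind the coordinates of Pgf given below reaches further upstream, to 85177790. That of Vegfc starts at 54077606, downstream of its whole printed window, which therefore holds no exon base of that model. Which starts the transcripts used was not tested. Capitals mark matches on either strand to 6 motifs that were searched: the TEAD motif GGAATG (TEAD factors carry YAP and TAZ to DNA), the AP-1 site TGANTCA, the hypoxia response core ACGTG, the cAMP response element TGACGTCA, the GC box GGGCGG and the TATA box TATAAA. In the windows printed, no match of 1 motif overlapped that of another.
Vegfc (chr8:54077282-54077581, plus strand): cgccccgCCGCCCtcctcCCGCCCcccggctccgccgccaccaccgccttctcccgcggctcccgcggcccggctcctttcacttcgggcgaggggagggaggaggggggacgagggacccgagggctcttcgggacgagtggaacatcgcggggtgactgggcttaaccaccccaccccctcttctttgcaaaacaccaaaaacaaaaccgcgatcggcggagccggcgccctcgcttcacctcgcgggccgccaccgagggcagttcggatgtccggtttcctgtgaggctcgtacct
Pgf (chr12:85177264-85177563, minus strand): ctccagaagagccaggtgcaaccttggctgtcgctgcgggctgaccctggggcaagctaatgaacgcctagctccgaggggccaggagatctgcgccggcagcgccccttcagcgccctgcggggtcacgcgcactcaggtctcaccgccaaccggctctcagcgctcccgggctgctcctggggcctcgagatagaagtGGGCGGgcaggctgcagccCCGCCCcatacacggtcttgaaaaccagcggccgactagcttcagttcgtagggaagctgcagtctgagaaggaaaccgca
Flt1 (chr5:147725962-147726261, minus strand): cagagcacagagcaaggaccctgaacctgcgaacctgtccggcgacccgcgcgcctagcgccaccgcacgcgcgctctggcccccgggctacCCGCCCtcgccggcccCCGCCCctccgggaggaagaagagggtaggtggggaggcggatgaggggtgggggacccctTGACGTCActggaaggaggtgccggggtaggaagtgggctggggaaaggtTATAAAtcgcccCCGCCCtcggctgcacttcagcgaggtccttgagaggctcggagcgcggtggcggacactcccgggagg
Kdr (chr5:75978406-75978705, minus strand): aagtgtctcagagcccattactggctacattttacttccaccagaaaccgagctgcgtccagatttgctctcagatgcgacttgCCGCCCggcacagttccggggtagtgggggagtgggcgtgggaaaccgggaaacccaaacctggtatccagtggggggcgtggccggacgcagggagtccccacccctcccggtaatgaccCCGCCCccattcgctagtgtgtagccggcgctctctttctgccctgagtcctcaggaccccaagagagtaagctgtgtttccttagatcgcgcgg
GC boxes were the motif common to all 4 windows, and 35.66% of all 32851 RefSeq windows of this length held one. Flt1 was the one with a cAMP response element, starting at -81 from the start site, which 1.79% of all windows held. It also had a TATA box at -31, present in 13.62% of all windows. The letters of the TEAD motif (in 14.66% of all windows), of the AP-1 site (7.808%) and of the hypoxia response core (19.62%) did not occur in these 4 windows. A match describes letters and is no evidence of binding. The lack of a match in 300 bases is no evidence against binding, here or elsewhere around the gene.

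The order of levels was the same at its upper end in both groups. In control pulldowns, the mean RPKM fell from Nrp1 through Vegfa, Kdr, Pgf, Vegfd, Nrp2, Flt1, Vegfc and Flt4 to Vegfb. Nrp1, with 79.7 ± 4.11 RPKM (SD, n = 3), exceeded 96.2% of all tested genes, whereas Vegfb exceeded 17.1%. Neighbours whose control values overlapped were Kdr and Pgf, Vegfd and Nrp2, and Nrp2 and Flt1. In iPCKO pulldowns, Vegfc had moved from the 8th place to the last, and Nrp2 and Flt1 had moved past Vegfd. The last places were not separated there, since Vegfc values overlapped those of Vegfb, and Vegfb those of Flt4.

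Vegfa (ENSMUSG00000023951, chromosome 17, 46016993 to 46032369 on GRCm38) was the ligand with the highest RPKM. It had 30.4, 33.4 and 30.6 RPKM in the controls and 37.6, 32.5 and 31.4 RPKM in iPCKO. Of the iPCKO lungs, iPCKO 1 alone lay above all controls. The log2 fold change of 0.10 (SE 0.097, limma adjusted p = 0.53) had a 95% interval from -0.12 to 0.32. Vegfa made up 53.0% ± 1.58 (SD, n = 3) of the summed ligand RPKM in controls and 50.2% ± 2.55 in iPCKO. The summed ligand RPKM was 56.7, 61.5 and 59.6 in controls and 70.7, 66.5 and 64.6 in iPCKO.

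Pgf (ENSMUSG00000004791, chromosome 12, 85166635 to 85177790), which binds FLT1, was the 1 ligand called higher. Its levels were 9.40, 11.7 and 13.5 RPKM in the controls and 20.3, 19.5 and 20.9 RPKM in iPCKO. Controls varied more among themselves (SD 2.06 RPKM) than mutants (SD 0.704 RPKM), yet the lowest iPCKO value stood well above the highest control. This gave a log2 fold change of 0.82 (SE 0.129, 95% interval 0.53 to 1.11, limma adjusted p = 0.00371). Without control 2, iPCKO 2 or iPCKO 3 the adjusted p of limma was 0.0132, 0.0144 and 0.0164, past the threshold of 0.01, with log2 fold changes between 0.80 and 0.85.

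Vegfc (ENSMUSG00000031520, chromosome 8, 54077606 to 54187096), a ligand of FLT4, was the 1 member called lower. Controls had 5.53, 4.82 and 4.80 RPKM, and iPCKO lungs 2.44, 2.80 and 2.24 RPKM. The 2 ranges lay far apart relative to the SD of 0.418 RPKM in controls and 0.287 RPKM in iPCKO. Its log2 fold change was -0.99 (SE 0.122, 95% interval -1.27 to -0.71, limma adjusted p = 0.00116). Vegfc alone among the members passed the thresholds in 6 of 6 fits that left out 1 lung.

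Vegfd (ENSMUSG00000031380, chromosome X, 164373378 to 164402650), the other FLT4 ligand, had 8.26, 8.95 and 8.23 RPKM in controls and 7.003, 9.02 and 7.66 RPKM in iPCKO. The groups overlapped, and the interval of the log2 fold change ran from -0.36 to 0.14. Its RPKM was 1.49 to 1.86 times that of Vegfc in controls and 2.87 to 3.42 times in iPCKO, so that the balance of these ligands separated the groups. Vegfb (ENSMUSG00000024962, chromosome 19, 6982473 to 6987651), a second ligand specific to FLT1, had 3.19, 2.68 and 2.51 RPKM in controls and 3.35, 2.70 and 2.40 RPKM in iPCKO. Both groups covered nearly the same range, with an interval of the log2 fold change from -0.35 to 0.36.

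**Figure D2:**
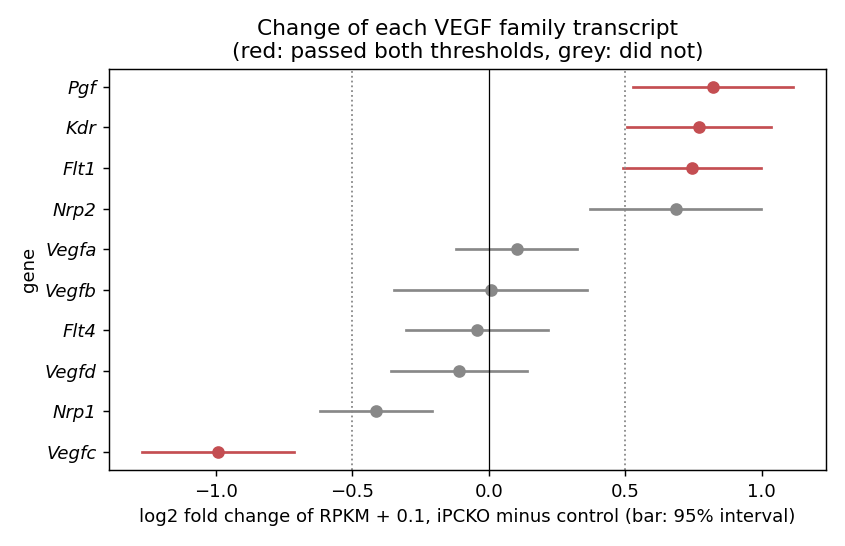
Log2 fold change of each VEGF family member, iPCKO minus control, on log2(RPKM + 0.1), with bars for the 95% interval of limma (3 lungs per group). Vegfc lies at -0.99 and Pgf, Kdr and Flt1 between 0.74 and 0.82, while the intervals of Vegfa, Vegfb, Vegfd and Flt4 include 0.

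Of the receptors, Kdr and Flt1 rose and Flt4 did not pass the test. Kdr (ENSMUSG00000062960, chromosome 5, 75932827 to 75978458), which encodes the main signalling receptor for VEGF-A, had 12.99, 16.7 and 16.4 RPKM in controls. In iPCKO it had 24.0, 27.9 and 26.5 RPKM, so all mutants lay above all controls. Kdr thus had a log2 fold change of 0.77 (SE 0.116, 95% interval 0.50 to 1.04, limma adjusted p = 0.00308). Without control 3, iPCKO 2 or iPCKO 3 the adjusted p of limma was 0.0108, 0.0171 and 0.0138, with log2 fold changes between 0.72 and 0.82.

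Flt1 (ENSMUSG00000029648, chromosome 5, 147561604 to 147726011) had 6.27, 6.91 and 7.12 RPKM in controls and 9.90, 11.9 and 12.5 RPKM in iPCKO. Again the groups did not overlap, and iPCKO 1 was the mutant nearest to the controls. The log2 fold change was 0.74 (SE 0.111, 95% interval 0.49 to 0.997, limma adjusted p = 0.00292). Leaving out iPCKO 1 kept the call, but without any other lung the adjusted p lay past 0.01: limma gave 0.0113 without control 1, 0.0113 without control 2, 0.0116 without control 3, 0.0169 without iPCKO 2 and 0.0118 without iPCKO 3. The log2 fold change stayed between 0.67 and 0.84 in these fits. Membrane-bound and soluble forms of FLT1 come from the same gene, and RPKM per gene does not separate them.

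Flt4 (ENSMUSG00000020357, chromosome 11, 49609263 to 49652739) had 3.31, 3.62 and 4.03 RPKM in controls and 3.35, 3.74 and 3.51 RPKM in iPCKO. All mutant values fell inside the range of the controls, with a log2 fold change of -0.04 (SE 0.114) and an interval from -0.30 to 0.22. Lymphatic endothelial markers were at mixed levels. Lyve1 had 7.49 to 9.85 RPKM in controls and 10.5 to 12.8 RPKM in iPCKO, above Flt4. Prox1, the defining transcription factor of lymphatic endothelium, had a control mean of 0.427 ± 0.075 RPKM (SD, n = 3) and an iPCKO mean of 0.569 ± 0.10 RPKM. Of the 4 lymphatic markers tested, 0 passed the thresholds in limma and 3 had an unadjusted p under 0.05, with a median log2 fold change of 0.64. Among these 4, Mmrn1 was under 1 RPKM in all controls (0.571 to 0.938) and could be tested only because it was higher in iPCKO. Prox1 and Reln stayed under the filter.

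Of the neuropilins, 0 of 2 were called in limma, although both had an unadjusted p under 0.05 and groups that did not overlap. Nrp1 (ENSMUSG00000025810, chromosome 8, 128358604 to 128503363) had 75.1, 81.1 and 83.0 RPKM in controls and 63.6, 59.4 and 56.8 RPKM in iPCKO. The log2 fold change of -0.41 (SE 0.090, 95% interval -0.62 to -0.21, limma adjusted p = 0.0169) passed neither threshold. Nrp2 (ENSMUSG00000025969, chromosome 1, 62703285 to 62818695) had 6.84, 8.46 and 8.96 RPKM in controls and 11.7, 15.3 and 12.2 RPKM in iPCKO. All mutants exceeded all controls here as well. The log2 fold change of 0.69 (SE 0.138, 95% interval 0.37 to 0.999) was past the fold threshold, and the limma adjusted p of 0.0118 was not below 0.01.

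Ratios within a library do not depend on its depth, and several of them separated the groups. Nrp2 RPKM was 0.0910, 0.104 and 0.108 of Nrp1 RPKM in controls and 0.184, 0.258 and 0.215 in iPCKO. Pgf RPKM was 0.309, 0.349 and 0.442 of Vegfa RPKM in controls and 0.541, 0.6004 and 0.665 in iPCKO. Both ratios were higher in every mutant than in every control. The ratio of the ligand Vegfc to its receptor Flt4 was 1.67, 1.33 and 1.19 in controls and 0.728, 0.749 and 0.637 in iPCKO, with Vegfc above Flt4 in all controls and below it in all mutants. By contrast, Flt1 RPKM was 0.413 to 0.483 of Kdr RPKM in controls and 0.412 to 0.474 in iPCKO, so the receptors rose together with no visible shift between them. With 3 lungs against 3, a 2-sided exact permutation test of such a ratio cannot give less than p = 0.1.

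**Figure D3:**
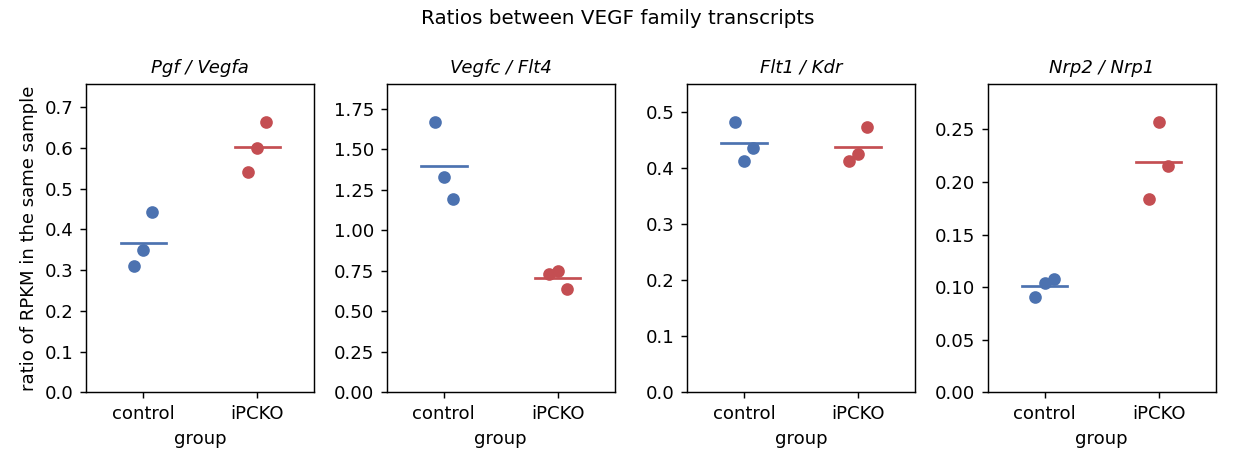
Ratios of RPKM between VEGF family members within each pulldown (1 point per lung, 3 per group, bars at the group mean, each axis from 0). Pgf over Vegfa and Nrp2 over Nrp1 are higher and Vegfc over Flt4 is lower in all iPCKO lungs, while Flt1 over Kdr overlaps between 0.412 and 0.483.

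Flt1, Kdr and Flt4 are usually carried by endothelial cells, and endothelial transcripts were present in the pulldowns. The 18 endothelial markers summed to 431 to 438 RPKM in controls and 387 to 439 RPKM in iPCKO. Cdh5 (VE-cadherin) had 32.9 ± 1.46 RPKM in controls and 34.2 ± 0.679 in iPCKO, and Pecam1 16.9 ± 2.25 and 17.2 ± 0.0657 RPKM (SD, n = 3). Of these 18, 0 passed the thresholds in limma and 8 had an unadjusted p under 0.05. Their log2 fold changes ran from -0.48 (Sox17) to 0.52 (Plvap) around a median of -0.04, with 8 above 0 and 10 below, and none reached that of Flt1. Set against the mean log2 level of the endothelial markers in the same library, Kdr was 0.80 higher and Flt1 0.77 higher in iPCKO on the log2 scale, and the groups stayed apart for both. On the same scale the difference was 0.71 for Nrp2, -0.38 for Nrp1 and -0.01 for Flt4. A separate list of 8 capillary subtype markers had log2 fold changes from -0.56 to 0.54. Of these, 1 (12.5%) passed, beside 6.79% over all genes tested. It was Aplnr, lower in iPCKO, with a mean of 12.1 RPKM in controls and 8.13 RPKM in iPCKO (limma adjusted p = 0.0034). This count was 0 without control 2, control 3, iPCKO 2 or iPCKO 3.

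**Figure D4:**
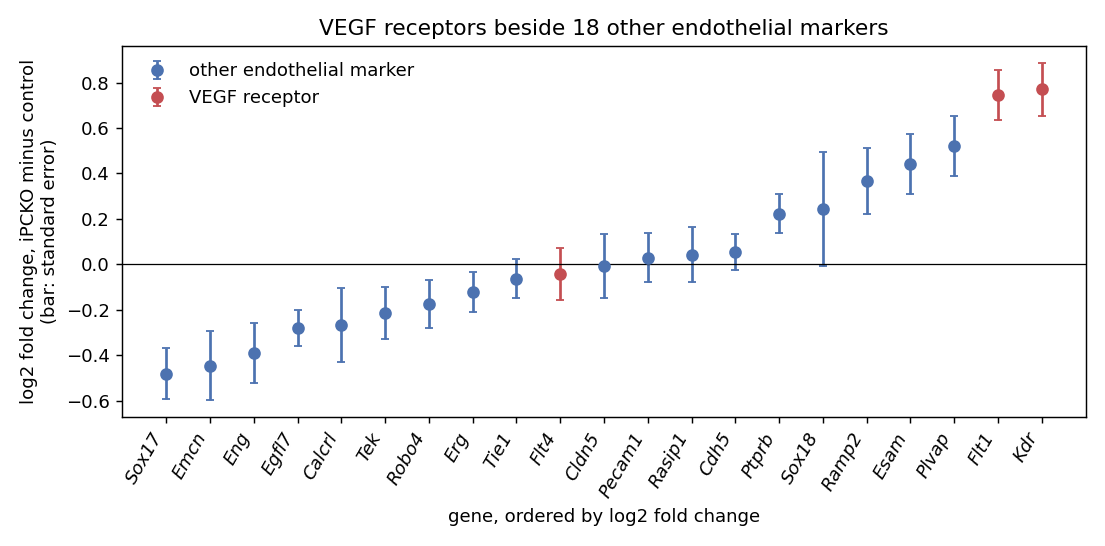
Log2 fold change (iPCKO minus control, on log2(RPKM + 0.1)) of the 3 VEGF receptors (red) and 18 other endothelial marker genes (blue), ordered by its size, with bars for the standard error of limma (3 lungs per group). The endothelial markers run from -0.48 to 0.52, below Flt1 at 0.74 and Kdr at 0.77.

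Transcripts of white blood cells and platelets were higher in iPCKO, whereas 0 of 6 erythrocyte markers passed in limma and 0 had an unadjusted p under 0.05. Of 10 general leukocyte markers, 8 passed the thresholds, all higher in iPCKO, and their summed RPKM was 58.9 to 82.5 in controls and 151 to 270 in iPCKO. This count was 2 without control 1, 3 without control 3 and 5 without iPCKO 2. For 10 neutrophil markers, 5 passed, 1 without any single control or without iPCKO 2 and 10 without iPCKO 1, and the sum was 84.6 to 124.6 against 444 to 4849 RPKM. Ly6g was under 1 RPKM in all controls and could be tested only because it was higher in iPCKO. Mmp8 was under 1 RPKM in controls 1 and 3. With 1 RPKM required in all samples 5 neutrophil markers passed. Of 8 platelet markers, 7 passed, with sums of 12.99 to 15.1 against 34.8 to 80.8 RPKM. Gp9, Gp5 and Treml1 were under 1 RPKM in all controls and Itga2b in 2 of them, and with 1 RPKM required in all samples 3 platelet markers passed. Without iPCKO 2 there were 4. Of 9 macrophage markers, 2 passed, and at most 1 without control 1, control 3, iPCKO 2 or iPCKO 3, with 107 to 179 against 341 to 530 RPKM. Marco was under 1 RPKM in all controls and could be tested only because it was higher in iPCKO. With 1 RPKM required in all samples 1 macrophage marker passed. Most of the sum was Lyz2, at 84.7 to 149.5 RPKM in controls and 308 to 485 RPKM in iPCKO. None of these markers was at 0 in all 6 samples, and their part in the VEGF results was not tested. The summed leukocyte and neutrophil RPKM were lowest among mutants in iPCKO 1 and highest in iPCKO 3. Flt1, Kdr and Nrp2 were also lowest among mutants in iPCKO 1, and Flt1 had the same order over the 3 mutants as these sums (9.90, 11.9 and 12.5 RPKM). Nrp1 fell in that order (63.6, 59.4 and 56.8 RPKM). By contrast, Kdr (24.0, 27.9 and 26.5 RPKM), Nrp2 (11.7, 15.3 and 12.2 RPKM) and Vegfc (2.44, 2.80 and 2.24 RPKM) were highest in iPCKO 2. Pgf (20.3, 19.5 and 20.9 RPKM) was lowest there. These orders over 3 lungs were not tested.

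Y-linked transcripts, which mark male animals, also differed between the groups, so that sex and genotype were partly confounded. Control 2, which like all mutants lacked them, had 4.82 RPKM of Vegfc, 11.7 of Pgf, 6.91 of Flt1 and 16.7 of Kdr. Since the groups did not overlap for these members, every control had to lie on the control side, so its place does not bear on sex. With the mean of the Y-linked transcripts as a covariate, a fit added after seeing the data, 0 members passed and 6 had an unadjusted p under 0.05 in limma. The share of all genes tested with such a p is not given, so the 6 cannot be set against it. In that fit the log2 fold changes were -0.93 for Vegfc, 0.80 for Pgf, 0.72 for Flt1 and 0.65 for Kdr, with limma adjusted p-values of 0.0400, 0.0782, 0.0723 and 0.0934. Over all genes, 119 passed, against 817 without the covariate.

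Around the family, 5 lists of VEGF-related genes held 110 tested genes, of which 16 (14.5%) passed, 15 higher and 1 lower, beside 6.79% over all genes tested. Without iPCKO 3 the count was 10, and with 1 RPKM required in all samples it was 13. The lists had been drawn up by textbook role. Their members' median log2 fold change was 0.04, against -9.72e-05 over all genes tested. Genes that are known to respond to VEGF in endothelial cells gave 5 of 18, all higher in iPCKO, with a median of 0.25. Of these, Egr3 and Esm1 were under 1 RPKM in all controls and could be tested only because they were higher in iPCKO. With 1 RPKM required in all samples, 3 genes of the list passed. The count was 3 without control 3 or iPCKO 1 and 2 without iPCKO 2 or iPCKO 3. Egr3, an immediate early transcription factor, had 0.215, 0.486 and 0.651 RPKM in controls and 2.47, 2.03 and 1.88 RPKM in iPCKO (log2 fold change 2.10, SE 0.313, limma adjusted p = 0.0029). Esm1 (endocan), a marker of endothelial tip cells, was low throughout, at 0.191 to 0.532 RPKM in controls and 1.26 to 1.68 RPKM in iPCKO. Dusp5, a phosphatase of ERK, rose by 1.33 and Stc1 (stanniocalcin 1) by 1.20 on the log2 scale, and Unc5b, a netrin receptor, by 0.74. Dll4 and Apln, tip cell genes, had log2 fold changes of 0.11 and 0.19 and did not pass. Cd34 was the highest of this list in controls, at 84.6 ± 17.0 RPKM in controls and 72.8 ± 9.37 in iPCKO (SD, n = 3), where Unc5b was at 73.8 RPKM.

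Signalling proteins downstream of the receptors gave 4 of 42 (9.52%, near the share over all genes), with a median log2 fold change of -0.02. Prkcb (protein kinase C beta) rose from 2.24, 2.73 and 2.59 RPKM to 10.8, 15.98 and 12.3 RPKM, a log2 fold change of 2.31 (SE 0.151). Hspb1 (HSP27) rose by 1.44 and the scaffold Iqgap1 by 0.79 on the log2 scale. Ptk2, which encodes focal adhesion kinase, was the 1 called gene of the 5 lists that was lower, from 78.6, 72.6 and 84.5 RPKM to 43.6, 43.5 and 43.4 RPKM (log2 fold change -0.85, SE 0.088). Plcg1, the phospholipase that binds phosphorylated KDR, had 24.7 ± 0.991 RPKM in controls and 23.6 ± 1.08 RPKM in iPCKO.

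Genes that process or bind VEGF ligands gave 6 of 22 (27.3%, beside 6.79% over all genes tested), all higher in iPCKO, with a median of 0.18. The count was 5 with 1 RPKM required in all samples and 4 without control 2, control 3 or iPCKO 3. With Y-linked transcripts as a covariate it was 1. Adamts3 and Adamts14 encode proteases of which ADAMTS3 is known to cleave pro-VEGF-C. Adamts3 rose from 4.33, 3.87 and 4.66 RPKM to 8.41, 7.03 and 7.61 RPKM (log2 fold change 0.83, SE 0.11), and Adamts14 by 1.19 on the log2 scale. Ccbe1, the cofactor of ADAMTS3, stayed under the filter, at 0.633 ± 0.0227 RPKM in controls and 0.489 ± 0.105 in iPCKO. Igfbp7 rose by 1.25, the heparan sulphate proteoglycan Gpc1 (glypican 1) by 0.97 and Plat (tissue plasminogen activator) by 0.63. Mmp9, a matrix metalloprotease abundant in neutrophils, was under 1 RPKM in all controls (0.645 to 0.924) and could be tested only because it was higher in iPCKO, with a log2 fold change of 3.62 (SE 0.637). Its levels of 3.19, 12.9 and 28.4 RPKM in iPCKO 1, 2 and 3 had the same order as the summed neutrophil markers. Sparc, which binds VEGF, was the highest of the list, at 1059 ± 21.6 RPKM in controls and 869 ± 80.0 in iPCKO.

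A list of hypoxia-inducible factors, their oxygen-dependent regulators and other target genes of these factors gave 1 of 15 (6.67%, near the share over all genes), with a median of -0.06. Slc2a1, the glucose transporter GLUT1 and such a target, rose from 1.796, 1.95 and 1.86 RPKM to 3.59, 4.06 and 3.74 RPKM (log2 fold change 0.98, SE 0.113). Epas1 (HIF-2α), the highest of the list, had 118 ± 21.9 RPKM in controls and 97.1 ± 6.64 in iPCKO, and Hif1a 29.3 ± 2.32 and 33.4 ± 2.25 RPKM. Semaphorins, plexins and other partners of neuropilins gave 0 of 13 in limma, of which 3 had an unadjusted p under 0.05, with log2 fold changes from -0.28 to 0.44 around a median of -0.02. Gipc1, which binds the tail of NRP1, was the highest of these, at 59.9 ± 9.94 RPKM in controls and 59.3 ± 12.8 in iPCKO.

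**Figure D5:**
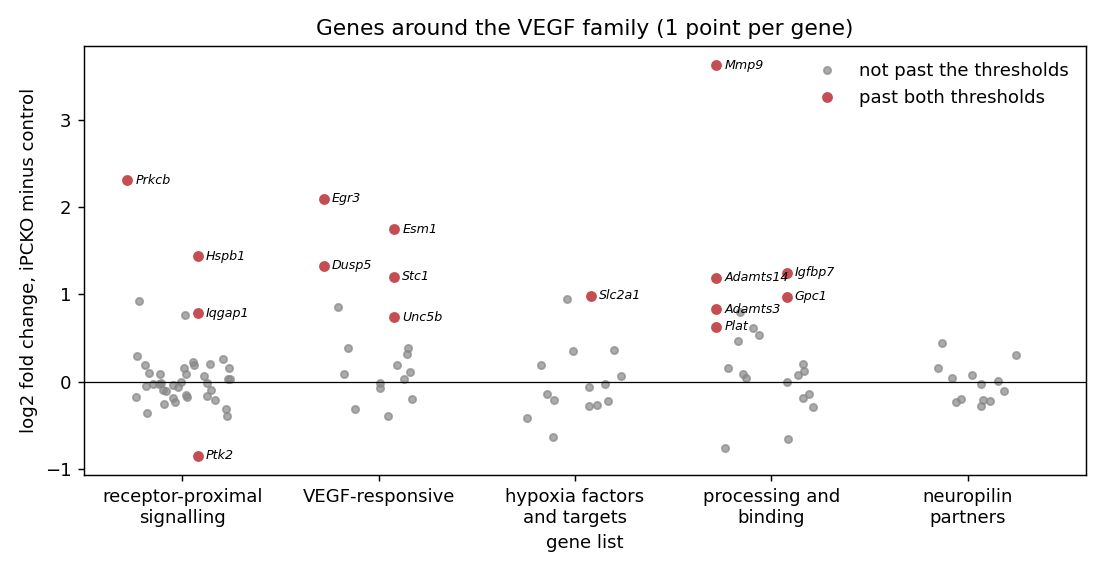
Log2 fold change (iPCKO minus control, on log2(RPKM + 0.1)) of the 110 tested genes in 5 lists around the VEGF family, 1 point per gene, with red points past both thresholds and named. Of the 16 named genes, Ptk2 at -0.85 is the one below 0, and Mmp9 at 3.62 is the highest.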

How the data were processed

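Ribosome-associated RNA from 6 P8 lungs (3 control, 3 Yap1,Wwtr1 iPCKO) was sequenced from stranded total RNA libraries. After mapping to mm10 (GRCm38) by TopHat and counting by HTSeq 0.6.1, the authors deposited RPKM per Ensembl gene, 1 table per sample. The exon lengths used, and whether counting used strand, are not given in the sources used here. Groups and replicate numbers came from the sample titles. Symbols were matched for 21375 of 21603 genes, and coordinates are those of GENCODE M21.

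RPKM were tested as log2(RPKM + 0.1) with limma 3.58.1 in R 4.3.3 (lmFit, eBayes with an intensity trend, Benjamini-Hochberg adjustment over the 12034 genes that reached 1 RPKM in 3 or more samples). Fold changes on this scale understate those of low genes. The study's thresholds were used for a call, 0.01 for the adjusted p and 0.5 for the size of the log2 fold change. The fit was checked on simulated data with independent noise for each gene. Such data lack shifts shared by many genes, so the check cannot speak to them. P-values rest on the variation between these lungs, with the variance of each gene moderated towards a trend over all genes tested. With 1 library per lung, variation between animals and between preparations was not told apart. Counts at an unadjusted p under 0.05 are given without the share over all genes tested and cannot be set against it. Members, lists and alternatives were chosen with earlier results of these data known. Named are all members, Yap1 and Wwtr1, and for each list up to 4 called genes with the largest changes and its highest and lowest genes; further genes (Pecam1, Cdh5, Prox1, Lyve1, Cspg4, Abcc9, Kcnj8, Notch3, Mcam, Rgs5, Itga2b, Gp5, Plcg1, Dll4, Apln, Ccbe1, Hif1a, Unc5b, Plat, Adamts3) were picked for their role after their values were seen. Of the list extremes, those the text turns on are printed.

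Depth was read from low RPKM, which fall on multiples of what 1 read is worth. Approximate reads behind a member rest on the merged exon length of GENCODE M21. Nrp1 shares 80 exon bases with a microRNA gene, and the other members share none with any gene. Alternatives were the replicate block, other filters, pseudocounts, scalings, thresholds and weights, each lung left out, and, chosen after seeing the data, Y-linked transcripts or depth as a covariate. Summaries used Python 3.11.15 with pandas 2.3.3 and numpy 2.4.6, and plots matplotlib 3.10.9.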

Additional observations from a re-analysis of the deposited data

How the results depend on the processing

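The 4 calls among the members were kept without a filter, with 1 RPKM required in all samples, with pseudocounts of 1 or 0.01, with median-ratio scaling, with quantile normalization and without the intensity trend. Labels give both groups replicate numbers 1 to 3, but lungs of the same number did not deviate together in every pair (r = 0.238, 0.0919 and 0.0225), and control 2 correlated best with iPCKO 3. With the replicate block 5 members passed, Nrp2 being added (adjusted p = 0.0048), and 922 genes in all. Sample weights also gave 5 members, with 29 genes of the VEGF-related lists against 16, 61 of the marker lists against 37, and 1590 of all genes against 817. Nrp2 passed as well at an adjusted p below 0.05. An absolute log2 fold change above 1 left 0 members, 9 list genes and 411 of all genes, and no filter on low values left 24 marker genes. With Y-linked transcripts as a covariate 0 members (6 at an unadjusted p under 0.05), 5 list genes and 2 marker genes passed. Depth as a covariate ended the call of Pgf (adjusted p = 0.0101) at the same log2 fold change of 0.82. Leaving out 1 lung gave 1 to 4 members, 10 to 16 list genes, 20 to 43 marker genes and 382 to 899 of all genes. Vegfc alone remained without iPCKO 2 or iPCKO 3, Kdr and Vegfc without control 2, and Pgf and Vegfc without control 3. Signs turned for Vegfb, Vegfd, Flt4 and Wwtr1, whose log2 fold changes lay between -0.11 and 0.05. Vegfb went to -0.0512 under quantile normalization and ran from -0.12 to 0.11 with 1 lung left out, and Flt4 ran from -0.11 to 0.0269. Vegfd went to 0.0336 with sample weights. Wwtr1 went to -0.0001 under quantile normalization and ran from -0.0293 to 0.17 with 1 lung left out. The cause of these shifts was not tested. Vegfb and Vegfc rest on the fewest reads, and 3 lungs per group limit every comparison.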

Other observations

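The genes whose log2 levels followed 9 of the 10 members most closely over the 6 pulldowns are given as a description. For members whose groups were apart, the likeness is largely the shared difference between groups, and with 6 samples many genes reach such values. Kdr was followed by Scfd2 (Pearson's r = 0.999), Slc16a10 and Polr2b, and Flt1 by Itga2b, the platelet integrin (r = 0.998), Sftpb, a surfactant protein of alveolar type 2 cells, and Limch1. Nrp2 was followed by Marco, a macrophage scavenger receptor (r = 0.993), Cops4 and Lgals3bp. Vegfc varied most like Mfhas1 (r = 0.999), Mbtd1 and Frg1, and Nrp1 like Pdha1 (r = 0.999), Zfp28 and Suox. Among members whose groups overlapped, Vegfa was closest to Dhrs11 (r = 0.995), Vegfb to Ormdl3 (r = 0.998), Vegfd to the collagen gene Col5a2 (r = 0.986) and Flt4 to Sik1 (r = 0.978).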
